A study of Saccharomyces cerevisiae BY4741 with 5 samples.

Results

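The CRAC counts on 8 mRNAs of fatty acid synthesis were examined: FAS1, FAS2, ACC1, OLE1, ELO1, ELO2, ELO3 and ACB1. They were taken by locus name from a table of 5090 transcripts, and all 8 were found. In CRAC, ultraviolet light cross-links an affinity-tagged protein to its RNA inside the cell, and the RNA fragments that stay attached through purification are sequenced. The tagged protein was Ssd1, an RNA-binding protein of the RNase II family without nuclease activity. It carried the tandem HTP tag at its C-terminus, at its own locus and followed by a 3′ untranslated region from Kluyveromyces lactis, in the Saccharomyces cerevisiae laboratory strain BY4741. Independent clones 3 and 4 of the Ssd1–HTP strain were grown exponentially in synthetic medium without tryptophan. Each clone gave 1 library after 16 min at 42°C and 1 library at 30°C, and untagged BY4741 at 30°C gave a single control library. Cells for 42°C were filtered and moved into pre-warmed medium, while the 30°C cultures went directly to cross-linking, so heat and transfer differ together. The 8 transcripts were chosen by name with their CRAC counts in these 5 libraries in view, and the contrast of FAS1 with FAS2 was selected on the same counts. Their values are therefore a description, and no call on them is independent evidence.

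Yeast makes fatty acids in the cytosol from acetyl-CoA. Acc1 carboxylates acetyl-CoA to malonyl-CoA, the committed step, and fatty acid synthase joins these units into saturated acyl-CoA. The synthase is built from equal numbers of β chains, encoded by FAS1, and α chains, encoded by FAS2. Ole1 then desaturates the products, the elongases Elo1, Elo2 and Elo3 lengthen them, and Acb1 binds and carries acyl-CoA esters.

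The libraries held 169549 and 413502 counts at 42°C (clones 3 and 4), 176962 and 111824 counts at 30°C, and 3921 counts in the untagged control. Because these totals differ widely, levels are given as CPM, the count divided by the library's total and put on one scale for all libraries, or, between genes, as TPM, which also divides by transcript length. Intervals are exact Clopper-Pearson 95% intervals and, like the limits for absent counts, cover counting error only. A count of 0 in the control is taken to allow up to 3 counts, which is 765 CPM at its depth. The exact interval for 0 counts there is wider and reaches 940 CPM. The values are shares of a library. Messenger RNA levels were not analysed here, nor was total RNA binding by Ssd1, which the paper describes as markedly higher after this heat shock. Fewer mRNA copies, less binding per copy and more binding to other RNAs therefore cannot be told apart behind a lower share.

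At 42°C the 8 transcripts together held 0.234% of the counts in clone 3 and 0.164% in clone 4, against 0.610% and 0.507% at 30°C. The mean share was 0.199% ± 0.0498 at 42°C and 0.559% ± 0.0730 at 30°C (SD, n = 2 each), so the gap was larger than the spread between clones. In the control, 6 of 3921 counts fell on them, or 0.153% (0.0562 to 0.333%). That interval includes the share of both libraries at 42°C and of neither at 30°C. The control counts were 5 on ELO3 and 1 on ACB1, with 0 on FAS1 and FAS2, so the summed shares rest on different transcripts. FAS1 made up 24.9% and 35.3% of the counts on the 8 transcripts at 42°C, and 53.4% and 42.5% at 30°C. Together with FAS2 it made up 55.7% and 51.1% at 42°C, and 71.4% and 55.4% at 30°C.

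FAS1 (YKL182W, chromosome XI, 100646 to 106951, plus strand, sacCer3) encodes the β subunit, which carries the acetyltransferase, enoyl reductase, dehydratase and malonyl/palmitoyl transferase. It had 99 and 239 counts at 42°C, against 577 and 241 at 30°C and 0 in untagged BY4741. As CPM these were 584 (475 to 711) in clone 3 and 578 (507 to 656) in clone 4 at 42°C, against 3261 (3000 to 3537) and 2155 (1892 to 2445) at 30°C. Both libraries at 42°C lay below both libraries at 30°C, and the clones lay close together at 42°C but apart by more than counting error at 30°C. FAS1 ranked 228 and 213 among all transcripts by count at 42°C, and 25 and 38 at 30°C.

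FAS2 (YPL231W, chromosome XVI, 108627 to 114440, plus strand) encodes the α subunit, with the acyl carrier, the ketoacyl synthase and reductase and the phosphopantetheine transferase. It had 122 and 107 counts at 42°C, against 194 and 73 at 30°C and 0 in untagged BY4741. In CPM this was 720 (598 to 859) in clone 3 and 259 (212 to 313) in clone 4 at 42°C, against 1096 (948 to 1262) and 653 (512 to 821) at 30°C. The groups overlapped, because clone 3 at 42°C lay above clone 4 at 30°C. The clones differed 2.78-fold at 42°C and 1.68-fold at 30°C, with clone 3 the higher one at both temperatures.

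ACC1 (YNR016C, chromosome XIV, 654548 to 661399, minus strand) encodes acetyl-CoA carboxylase, which supplies malonyl-CoA to both the synthase and the elongases. It had 50 and 90 counts at 42°C, against 128 and 101 at 30°C and 0 in untagged BY4741. These were 295 and 218 CPM at 42°C, against 723 and 903 CPM at 30°C. The groups did not overlap. Its interval shares 97 nt with SMM1 on the other strand, which had 6 and 3 counts at 42°C, against 18 and 15 at 30°C and 0 in untagged BY4741. The sources used here do not say whether strand was used in counting, so a few SMM1 reads may be included.

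OLE1 (YGL055W, chromosome VII, 398566 to 400384, plus strand) encodes the stearoyl-CoA desaturase that makes the monounsaturated fatty acids of yeast membranes. It had 31 and 80 counts at 42°C, against 59 and 33 at 30°C and 0 in untagged BY4741, which were 183 and 193 CPM at 42°C and 333 and 295 CPM at 30°C. The groups did not overlap in CPM, but the counting intervals of 153 to 241 CPM for clone 4 at 42°C and of 203 to 414 CPM for clone 4 at 30°C did.

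The elongase transcripts were thinly counted. ELO1 (YJL196C, chromosome X, 67715 to 68805, minus strand), whose product elongates medium-chain acyl-CoA, had 0 and 7 counts at 42°C, against 25 and 10 at 30°C and 0 in untagged BY4741. Its level was 0 and 16.9 CPM at 42°C, where the absence of counts in clone 3 allows up to 17.7 CPM, and 141 and 89.4 CPM at 30°C. ELO2 (YCR034W, chromosome III, 190566 to 191803, plus strand) acts with ELO3 in making the very long chains of sphingolipids. ELO2 had 21 and 31 counts at 42°C, against 23 and 14 at 30°C and 0 in untagged BY4741. In CPM this was 124 and 75.0 at 42°C and 130 and 125 at 30°C, values whose counting intervals overlap. The ELO2 interval shares 115 nt with RRP43 on the other strand, which had 4 and 18 counts at 42°C, against 0 and 0 at 30°C and 0 in untagged BY4741.

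ELO3 (YLR372W, chromosome XII, 867210 to 868493, plus strand) had 7 and 14 counts at 42°C, against 32 and 46 at 30°C and 5 in untagged BY4741. This gave 41.3 and 33.9 CPM at 42°C, 181 and 411 CPM at 30°C, and 1275 CPM (414 to 2973) in the control. The order was thus control above 30°C above 42°C without overlap, and the interval of clone 4 at 30°C (301 to 549 CPM) reached into that of the control. ACB1 (YGR037C, chromosome VII, 559550 to 560038, minus strand) encodes the acyl-CoA-binding protein. It had 67 and 109 counts at 42°C, against 42 and 49 at 30°C and 1 in untagged BY4741, or 395 and 264 CPM at 42°C, 237 and 438 CPM at 30°C, and 255 CPM (6.46 to 1420) in the control. The clones went opposite ways, with 42°C over 30°C at 1.66 in clone 3 and 0.602 in clone 4.

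**Figure D1:**
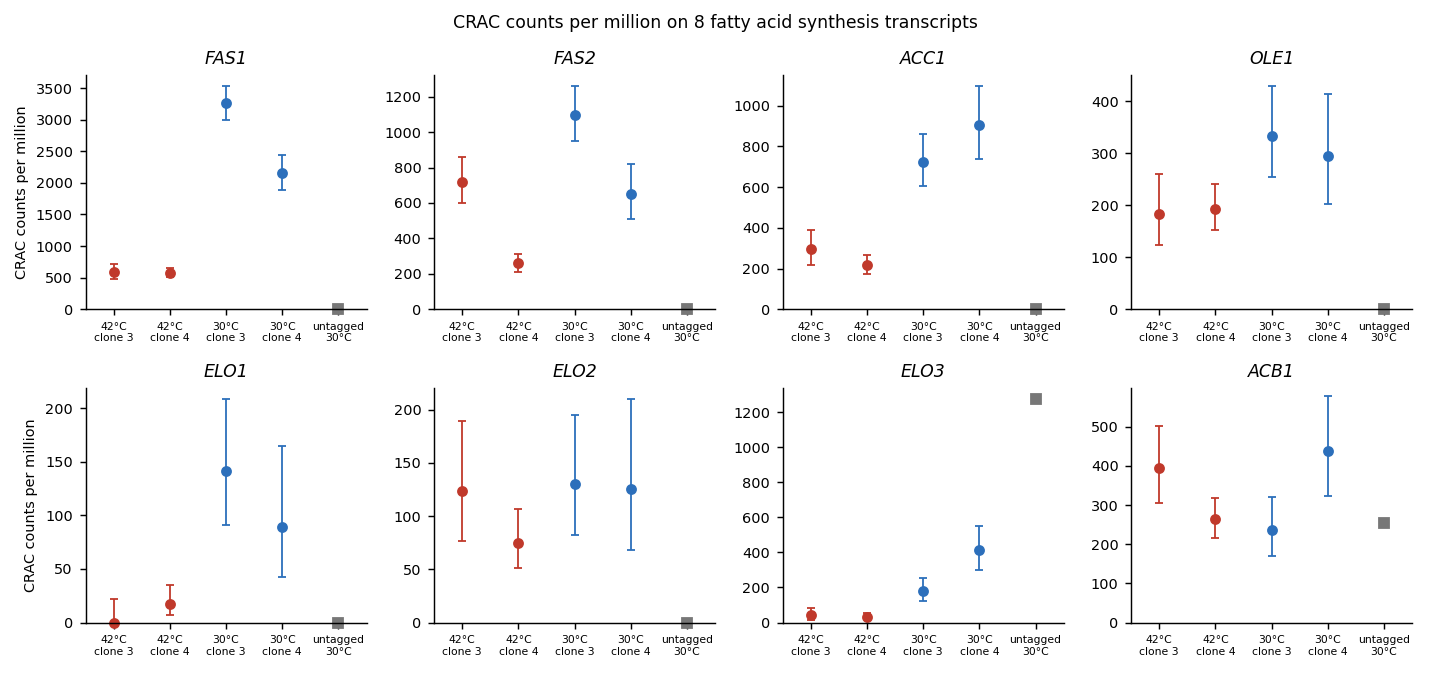
CRAC level in CPM (linear axes that start at 0 and differ between panels) for the 8 transcripts in each Ssd1–HTP library at 42°C (red) and 30°C (blue) and in the untagged control at 30°C (grey squares); bars are exact 95% counting intervals, left out for the control, where 0 counts allow up to 765 CPM. FAS1 stood at 584 and 578 CPM at 42°C against 3261 and 2155 CPM at 30°C, and ELO3 was highest in the control, at 1275 CPM.

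To ask which transcripts differed between 42°C and 30°C, TMM-normalized counts of the 4 Ssd1–HTP libraries were tested in edgeR (quasi-likelihood). The test covered 2837 transcripts that averaged 10 counts or more, with Benjamini-Hochberg adjustment over all of them. All 8 transcripts passed this minimum, ELO1 only through its 25 and 10 counts at 30°C, against 0 and 7 at 42°C. For ELO1 the minimum thus favours a lower value at 42°C, and without 30°C replicate 3 it was not tested. Of the 8, FAS1 alone was called lower and 0 were called higher at an adjusted p under 0.05. Over all tested transcripts 3.45% were called lower and 3.81% higher. FAS1 had a log2 fold change of -2.13 (SE 0.43, adjusted p = 0.0234 from edgeR), 4.39-fold lower at 42°C, with -2.52 within clone 3 and -1.69 within clone 4. In edgeR the adjusted p was close to the threshold without 30°C replicate 4 (adjusted p = 0.0499) and lower in DESeq2 (adjusted p = 4.2e-05), and the range over all alternatives was 4.2e-05 to 0.0499.

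The other 7 did not pass the test. ELO3 had a log2 fold change of -2.87 (SE 0.87, adjusted p = 0.0972 from edgeR) and was called without 30°C replicate 3, at -3.37 (adjusted p = 0.0248 from edgeR, the lowest of its alternatives, which reach 0.342). ACC1 had -1.59 (SE 0.50, adjusted p = 0.108 from edgeR) and was called when the mean count had to reach 50, at -1.71 (adjusted p = 0.0139 from edgeR, the lowest of its alternatives, which reach 0.270). ELO1 had -3.38 with an SE of 1.79, the widest of the 8, and rests on the few counts given above. FAS2 had -0.82 (SE 0.58, adjusted p = 0.534 from edgeR), which moved to -1.54 without 42°C replicate 3 and to -0.30 without 42°C replicate 4, and it was not called in either case. The fit gave -0.64 (SE 0.61) for OLE1, -0.30 (SE 0.90) for ELO2 and 0.05 (SE 0.59) for ACB1. Of the 8, 7 had a log2 fold change below 0 and their median was -1.20, beside 46.8% below 0 and a median of 0.13 over all 2837 transcripts. In CPM, 6 of the 8 had both libraries at 42°C below both at 30°C (all but FAS2 and ACB1) and 0 had the reverse. Over all tested transcripts these shares were 25.7% and 27.2%. ELO1, which passed the count minimum only through 30°C, is among both the 7 and the 6.

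**Figure D2:**
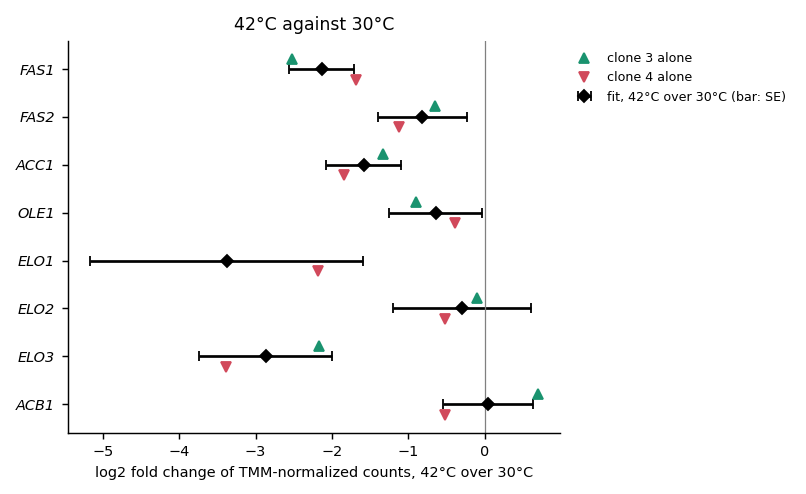
log2 fold change of TMM-normalized counts at 42°C over 30°C (x axis) for the 8 transcripts; diamonds are the edgeR fit with its standard error, and triangles are each clone alone (clone 3 of ELO1, with 0 counts at 42°C, has none). FAS1 lay at -2.13 with -2.52 and -1.69 in the clones, and the clones of ACB1 lay on opposite sides of 0.

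The mRNAs of the partner subunits differed in their CRAC densities. Within a library the ratio of counts per kb does not depend on depth, and no test was made of it because the pair was chosen for this contrast. At 42°C, FAS1 over FAS2 was 0.748 (0.568 to 0.983) in clone 3 and 2.06 (1.63 to 2.61) in clone 4. At 30°C it was 2.74 (2.33 to 3.24) in clone 3 and 3.04 (2.33 to 4.01) in clone 4. The mean ratio was 1.40 ± 0.927 at 42°C and 2.89 ± 0.213 at 30°C (SD, n = 2 each). FAS1 was the denser of the pair in both clones at 30°C and in clone 4 at 42°C, and FAS2 was the denser in clone 3 at 42°C. The ratio was lower at 42°C than at 30°C in each clone, but by unequal amounts, and clone 4 at 42°C was nearer to the libraries at 30°C than to clone 3 at 42°C.

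In TPM, FAS1 stood at 114 and 105 at 42°C and at 622 and 415 at 30°C, while FAS2 stood at 152 and 51.0 at 42°C and at 227 and 136 at 30°C. The clones of FAS1 at 42°C thus differed by 1.01-fold in CPM, so the unequal ratios at 42°C followed the clones of FAS2. Both intervals have the authors' default ends, 25 nt before and 125 nt after the coding region, which makes up 97.6% of the FAS1 interval and 97.4% of the FAS2 interval. Reads in untranslated sequence outside these ends were not counted on either mRNA, and the same holds for ACC1. With coding length in place of interval length, the mean ratio was 1.40 at 42°C and 2.89 at 30°C.

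**Figure D3:**
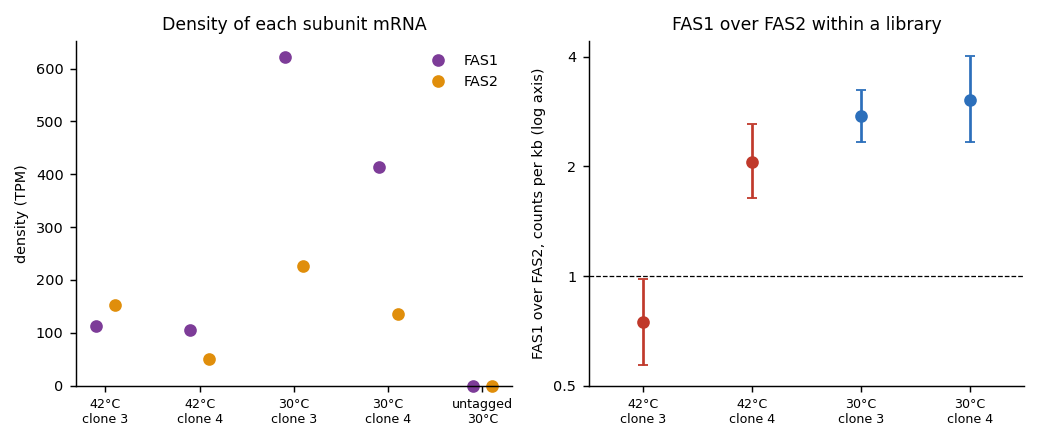
Left, density in TPM (linear axis from 0) of FAS1 and FAS2 in each library; right, FAS1 over FAS2 in counts per kb within each Ssd1–HTP library (log axis), with exact 95% counting intervals and a dashed line at equal density. The ratio was 0.748 and 2.06 at 42°C, and 2.74 and 3.04 at 30°C.

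Ordered by density, ACB1 came first at both temperatures, with 805 ± 265 TPM at 42°C and 835 ± 356 TPM at 30°C (SD, n = 2 each here and below). Next at 42°C were OLE1 with 123 ± 1.16, FAS1 with 109 ± 6.19, FAS2 with 102 ± 71.5, ELO2 with 96.2 ± 37.9, ACC1 with 44.6 ± 11.7, ELO3 with 34.9 ± 6.57 and ELO1 with 8.89 ± 12.6 TPM. Neighbours in this order whose clones overlapped were FAS1 and FAS2, FAS2 and ELO2, and ACC1 and ELO3. TPM divides by the whole interval, of which coding sequence makes up 54.0% for ACB1 (489 nt) and 97.6% for FAS1 (6306 nt). The paper found Ssd1 reads mainly in 5′ untranslated regions of its targets, and positions within transcripts were not examined here. The order at either temperature therefore rests in part on interval length.

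At 30°C ACB1 was followed by FAS1 with 518 ± 146, ELO3 with 279 ± 155, OLE1 with 209 ± 16.6, FAS2 with 181 ± 64.0, ACC1 with 143 ± 23.3, ELO1 with 128 ± 39.8 and ELO2 with 124 ± 2.49 TPM. Here only FAS1 and ELO3 were neighbours without overlap. The median over all transcripts was 35.3 and 32.0 TPM at 42°C, and 39.4 and 31.5 TPM at 30°C. All 8 lay above it in both libraries at 30°C, from the 74.4th percentile (ELO1, clone 4) to the 97.8th (ACB1, clone 4). At 42°C, ELO1 lay below it in both clones, ELO3 was at the 52.4th and 48.7th percentiles, and ACC1 at the 58.8th and 53.4th. ACB1 stayed at the 97.4th and 96.4th percentiles at 42°C, against the 94.8th and 97.8th at 30°C.

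**Figure D4:**
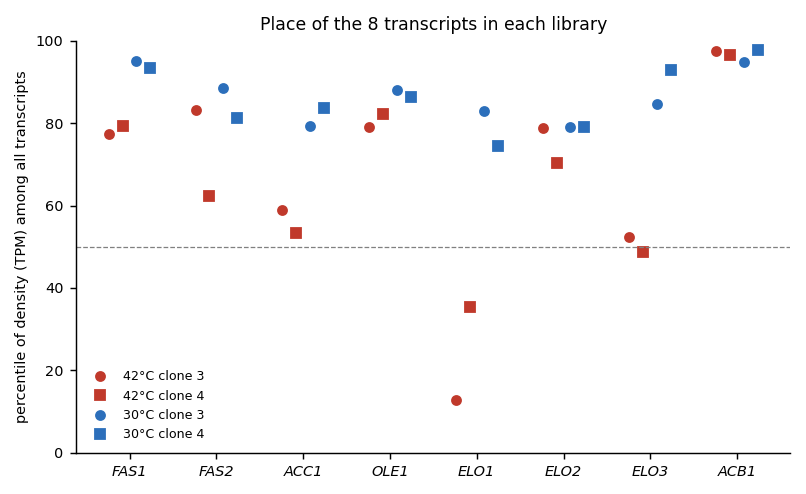
Percentile of the density (TPM) of each of the 8 transcripts among all 5090 transcripts in the Ssd1–HTP libraries at 42°C (red) and 30°C (blue), clone 3 as circles and clone 4 as squares; the dashed line is the middle of all transcripts. All 8 lay above that line at 30°C, and ELO1 lay below it in both clones at 42°C.

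Against the untagged control the 8 transcripts were limited by its depth. Scaled by total counts, a quasi-likelihood fit in edgeR to all 5 libraries called 1 of 7 tested lower (ELO3) and 0 higher at 42°C, and 1 of 8 higher (FAS1) and 0 lower at 30°C. The background was 1.15% of 3046 tested transcripts higher and 3.15% lower at 42°C, and 0.887% of 2256 higher and 2.44% lower at 30°C. These calls follow the scaling of the control: at 42°C they were 35 higher and 96 lower by total counts and 200 higher and 3 lower by TMM, and at 30°C they were 20 and 55 by total counts and 77 and 1 by TMM. TMM moved the median log2 fold change of transcripts with counts in the control by 2.92 at 42°C and by 2.34 at 30°C. With 1 control library, the test takes its spread from the clones of Ssd1–HTP. That library was at 30°C, so in the comparison at 42°C tag and temperature differ together.

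At 30°C, the mean share of FAS1 was 3.54 times that of 3 control counts, a ratio that leaves out the counting error of FAS1. The exact intervals of its clones, from 3000 and from 1892 CPM, lay above the 940 CPM that the exact interval of the control reaches. FAS1 was called higher than the control (adjusted p = 0.0433 from edgeR). The call was lost without 42°C replicate 3 (adjusted p = 0.0989), without 42°C replicate 4 (adjusted p = 0.0914) and in edgeR on the 3 libraries at 30°C alone (adjusted p = 0.0519), and the range over its alternatives was 0.00144 to 0.0989. The mean share at 30°C was 1.14 times that of 3 control counts for FAS2 and 1.06 times for ACC1, neither of them called by total counts. Their means of 875 and 813 CPM lay under 940 CPM, so the exact interval of the control gives no bound above 1. FAS2 in clone 4, at 653 CPM, and ACC1 in clone 3, at 723 CPM, lay under the limit of 765 CPM by themselves. ACC1 was called under TMM (adjusted p = 0.0388 from edgeR, the lowest of its alternatives, which reach 0.493). OLE1, ELO1 and ELO2 lay under 765 CPM in every library, as did FAS1, FAS2 and ACC1 at 42°C, so their counts give no bound above 1 over the control by total counts. FAS1 at 42°C was not called by total counts (adjusted p = 0.307 from edgeR) but was called higher under TMM (adjusted p = 0.0218 from edgeR, the lowest of its alternatives, which reach 0.418).

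ELO3 had a smaller share in the Ssd1–HTP libraries than in the control, at 0.0295 times the control at 42°C (0.0126 to 0.0907) and 0.232 times at 30°C (0.0995 to 0.715), where the intervals are exact Poisson 95% intervals of the 5 control counts. It was called lower at 42°C (log2 fold change -5.08, SE 1.09, adjusted p = 0.0355 from edgeR) and not at 30°C (-2.11, SE 1.04, adjusted p = 0.482 from edgeR). Under TMM the difference at 42°C was -2.15 (adjusted p = 0.222 from edgeR), and the one at 30°C turned to 0.22 (adjusted p = 0.856). Without 42°C replicate 4, ELO3 did not reach the count minimum. ACB1 was 1.29 times its share in the control at 42°C (0.232 to 51.0) and 1.32 times at 30°C (0.238 to 52.3), from 1 control count. Under TMM its log2 fold change over the control was 3.25 at 42°C (adjusted p = 0.136 from edgeR) and 2.71 at 30°C (adjusted p = 0.191 from edgeR), against 0.36 and 0.40 by total counts, and it was not called under any setting.

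The rest of fatty acid metabolism was represented by 27 other genes, all in the table, of which 20 passed the count minimum between the temperatures. Of these, 0 were called higher and 0 lower at 42°C by edgeR, beside 3.81% and 3.45% of all tested transcripts. An unadjusted p under 0.05 was found for 2 of the 20, beside 577 of all 2837. DESeq2 also called 0. Their log2 fold changes were above 0 for 15 of 20, beside 1510 of all 2837 tested transcripts. Their median was 1.28, beside 0.13 over all tested transcripts. All 5 genes of acetyl-CoA supply and Acc1 partners had values above 0 (median 1.39), as did the 5 tested transcriptional regulators (median 2.18), and none passed the test. However, ACS1, BPL1, HFA1, ETR1, HTD2, INO2, MGA2 and OAF1 passed the count minimum only through their counts at 42°C. ACS1 had 37 and 43 counts at 42°C, against 6 and 0 at 30°C, and OAF1 had 12 and 30, against 0 and 0. For these genes the minimum thus favours a higher value at 42°C. The 15 of 20 above 0 and the medians of 1.28, 1.39 and 2.18 therefore rest in part on the minimum. The 2 tested partners of the elongation cycle had a median of 0.13, the 5 of mitochondrial fatty acid synthesis 0.19 and the 3 of fatty acid activation and import -0.66. The regulator INO4 did not pass the count minimum, and neither did OPI1, the repressor of phospholipid synthesis genes, with 0 and 0 counts at 42°C and 24 and 8 at 30°C.

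The most counted of the 27 was ACS2, which encodes the acetyl-CoA synthetase used during growth on glucose, with 171 and 563 CPM at 42°C and 254 and 385 CPM at 30°C. Its groups overlapped, and its log2 fold change was 0.37 (SE 0.71, adjusted p = 0.868 from edgeR). FAA1, the main long-chain acyl-CoA synthetase, had 472 and 428 CPM at 42°C and 237 and 107 CPM at 30°C, without overlap (log2 fold change 1.44, SE 0.63, adjusted p = 0.249 from edgeR). ACP1, the mitochondrial acyl carrier protein, had 218 and 210 CPM at 42°C and 418 and 152 CPM at 30°C, and its groups overlapped (log2 fold change -0.34, SE 0.70, adjusted p = 0.871 from edgeR). None of these 3 had counts in the control.

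The transcripts nearest to FAS1 and FAS2 in level and pattern were found by the Euclidean distance of log2(TPM + 10) over the 4 Ssd1–HTP libraries, among 2837 transcripts. For FAS1 they were RPL23B, a gene of the large ribosomal subunit, at a distance of 0.483, the morphogenesis checkpoint kinase gene HSL1 at 0.494 and the ribosomal protein gene RPL36A at 0.663. RPL23B and RPL36A have near-identical copies in the genome, so their counts are uncertain. For FAS2 the nearest were the G1 transcription regulator gene MSA2 at 0.539, the mitochondrial dicarboxylate carrier gene DIC1 at 0.610 and FKS1, which encodes a glucan synthase subunit, at 0.677. MSA2 had 109 and 43.8 TPM at 42°C and 266 and 145 TPM at 30°C. Its clones had the same order as those of FAS2, which the choice by distance over these values favours.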

How the data were processed

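CRAC libraries of Ssd1–HTP clones 3 and 4 at 42°C and 30°C and of untagged BY4741 at 30°C were used. The authors removed 3′ adapters with flexbar, demultiplexed by barcode, collapsed PCR duplicates by insert and random barcode nucleotides, aligned to the genome with Novoalign and counted reads per transcript with multiBamCov. The submitters' processing notes name the build as sacCer3. The file holds these counts as deposited by the authors, as whole numbers that were not normalized. Of the 5090 intervals, 878 have default untranslated regions, and 876 of these lie exactly 25 nt before and 125 nt after the RefSeq coding region of assembly R64, which also gave the symbols of all 5090 loci.

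CPM, TPM and ratios were computed in Python 3.11.15 with scipy 1.17.1. Groups came from the sample labels. Counts were tested with edgeR 4.0.16 in R 4.3.3: TMM and the 4 Ssd1–HTP libraries between temperatures, total counts and all 5 libraries against the control, without covariates, a minimum of 10 for the mean count over the libraries compared (the Ssd1–HTP group for the control), Benjamini-Hochberg adjustment and a threshold of 0.05. The standard error is the log2 fold change divided by the square root of F. The tests were also run on simulated counts with levels taken from the Ssd1–HTP libraries, and no result here rests on that run. The levels of the untagged control were not simulated. Alternatives were RLE size factors or TMM, DESeq2 1.42.0, other count minimums, fewer libraries in the fit, the replicate block and each replicate left out. The replicate number marks a clone, and by the labels' extract protocol the samples of 1 clone at 42°C and 30°C were combined after linker ligation, so the numbers pair the samples. The clone difference at 42°C had r = -0.02 with that at 30°C across 2837 transcripts.

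The members and gene lists were chosen with earlier results of these data known. The text names the 8 members, any overlapping transcript, the 3 most counted of the 27 other genes and those called, and the 3 transcripts nearest to FAS1 and to FAS2. OPI1, INO4, FAA3, FAA4, PHS1 and OAR1 were named after their values were seen. Sequences and sequence similarity were not analysed here.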

Additional observations from a re-analysis of the deposited data

How the results depend on the processing

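The call of FAS1 as lower at 42°C than at 30°C was kept under all 9 alternatives, with a log2 fold change of -2.40 to -1.81, and the replicate block changed no call on the 8 transcripts (FAS1 -2.10 with the block, adjusted p = 0.00347 from edgeR). The direction of ACB1 was not settled: between the temperatures it was -0.076 with a mean count of at least 50 and -0.35 (without 30°C replicate 3) to 0.53 (without 30°C replicate 4) with a replicate left out, -0.11 without 42°C replicate 3 among them, and against the control at 30°C it was -0.10 (without 30°C replicate 4) to 0.78 (without 30°C replicate 3) with a replicate left out, and 2.71 under TMM. ELO3 against the control at 30°C was 0.22 under TMM. The cause was not tested for any of these.

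Between the temperatures, the transcripts called higher numbered 174 with no count minimum and 75 to 193 with a replicate left out, and those called lower 165 in DESeq2 and 33 to 121 with a replicate left out. Of the 8 members, 2 were called lower with a mean count of at least 50 (FAS1 and ACC1) and 1 to 2 with a replicate left out (FAS1 and ELO3 without 30°C replicate 3). Of the 27 other genes, 0 to 2 were called higher with a replicate left out (ACS1 and MGA2 without 30°C replicate 3). Against the control at 30°C, 77 transcripts were higher and 1 lower under TMM, 132 lower in DESeq2, 32 higher and 172 lower with no count minimum, 47 higher with a mean count of at least 50, and 15 to 28 higher and 17 to 78 lower with a replicate left out. The members called higher there were 2 under TMM, 0 with only the libraries at 30°C and 0 to 1 with a replicate left out. Against the control at 42°C, 200 were higher and 3 lower under TMM, 205 lower in DESeq2, 72 higher and 251 lower with no count minimum, 53 lower with a mean count of at least 50, and 35 to 68 higher and 98 to 179 lower with a replicate left out. The members called there were 1 higher (FAS1) and 0 lower under TMM, 0 lower with a mean count of at least 50 (ELO3 was then not tested) and 0 to 1 lower with a replicate left out.

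The share of the 8 transcripts was 0.132% of TPM at 42°C and 0.242% at 30°C, and 0.772% at 30°C when the 10 most counted transcripts were left out of the total. Without division by length, FAS1 over FAS2 at 30°C was 3.14. The control's 3921 counts limit what can be seen over background.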

Other observations

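Among the other genes of fatty acid metabolism, counts of some transcripts differed widely between clones of one temperature. FAA4, which encodes a long-chain acyl-CoA synthetase, had 5 and 39 counts at 42°C, against 118 and 2 at 30°C (clones 3 and 4), so that almost all of its counts at 30°C came from 1 library. FAA3, a related synthetase gene, had 30 and 1 counts at 42°C, against 41 and 4 at 30°C and 9 in untagged BY4741, or 2295 CPM there, above its level in every Ssd1–HTP library. PHS1, the dehydratase gene of the elongation cycle, had 0 and 3 counts at 42°C, against 19 and 8 at 30°C and 3 in untagged BY4741. OAR1, a reductase gene of mitochondrial fatty acid synthesis, had 1 and 22 counts at 42°C, against 23 and 16 at 30°C and 3 in untagged BY4741. Of the 8 members and the 27 other genes, ELO3, ACB1, FAA3, PHS1 and OAR1 had counts in the control, and the rest had none.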
